A study of Mus musculus with 24 samples.

Results

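The comparison is between J1 mouse cells that lack Eed (Eed KO J1) and J1 cells with Eed intact (WT J1), at 3 points of a differentiation course. J1 is a male mouse embryonic stem cell (ESC) line. The arrays were taken by their titles: each array whose title names J1 belongs, which gave 12 of the 24 arrays of the series, 6 of Eed KO J1 and 6 of WT J1, with 2 arrays per genotype and day. In this pair the named line is the same on both sides. The other 12 arrays hold Eed KO E14 and WT V6.5, where genotype and named line differ together.

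The series addresses how loss of Eed changes gene expression in mouse ESCs and in embryoid bodies (EBs), the spherical aggregates in which ESCs begin to form tissues of the embryo. On day 0 the cells were ESCs, expanded in fetal calf serum and medium conditioned with the cytokine LIF, on mouse embryonic fibroblasts (MEFs) whose division had been blocked with mitomycin C. On days 3 and 7 they were EBs, begun as hanging drops of MEF-depleted ESCs in medium without LIF. Total RNA was measured on Affymetrix Mouse Gene 1.0 ST arrays. The labels name every sample an embryonic stem cell, also on days 3 and 7, and do not say whether the day 0 RNA was taken after MEF depletion. They do not say which part of Eed is deleted.

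Each genotype of J1 is 1 cell line, received in the case of Eed KO J1 from another laboratory, so the effect of the deletion and differences between 2 clones of the line cannot be told apart in these 12 arrays. The labels number the 2 arrays of a group but do not say that they came from separate cultures, so each p-value measures the spread between these arrays, which may be technical.

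Polycomb repressive complex 2 (PRC2) methylates lysine 27 of histone H3, and EED is one of the proteins it cannot do without. EED binds the trimethylated mark and stimulates the catalytic subunit EZH2, and without EED the complex falls apart and the mark is lost. In ESCs the mark lies over many silent developmental genes, such as the Hox clusters and transcription factors of the germ layers, and ESCs without EED can be kept in culture but differentiate abnormally.

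Eed, the deleted gene, was low in every KO J1 array. Its log2 values were 7.19 and 7.06 in KO J1 and 10.28 and 10.80 in WT J1 on day 0, 6.21 and 6.42 in KO J1 and 9.60 and 9.91 in WT J1 on day 3 and 6.26 and 6.23 in KO J1 and 9.56 and 9.41 in WT J1 on day 7. The groups did not overlap on any day, and the highest KO J1 value lay below the lowest WT J1 value. The mean difference over the 3 days was -3.36, with an SE of 0.16 and an adjusted p of 3.74e-10 (limma, Benjamini-Hochberg adjustment over 19938 genes). A difference is KO J1 minus WT J1 on the log2 scale throughout, so that 1 stands for a 2-fold higher value in KO J1. A second probe set of Eed had a mean value of 5.76 over the 24 arrays and differed by 0.02. The 20 genes measured next to Eed on chromosome 7, 10 on each side, differed by between -0.31 and 0.77 over the days, and only Sytl2 on day 7 among them was called in the comparisons of the days or their mean.

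The 2 arrays of a group were close to each other except in WT J1 on day 7. Their correlation across genes was 0.990 to 0.994 in the other 5 J1 groups, with 22 to 138 genes at least 2-fold apart. In WT J1 on day 7 it was 0.962, and 1256 genes were at least 2-fold apart: 840 were higher in array 2 and 416 in array 1. Array 2 was at least 2-fold above array 1 for 20 of 34 blood and endothelial genes, 9 of 26 cardiac and muscle genes, 11 of 31 endoderm genes, 10 of 34 fibroblast genes and 10 of 21 interferon response genes. Array 1 was at least 2-fold above array 2 for 8 of 15 primed epiblast genes, 10 of 26 neuroectoderm genes, 9 of 25 core pluripotency genes, 6 of 22 streak and early mesoderm genes and 19 of 90 developmental transcription factors. For many results that include these arrays, the difference or count is also given below without each of them. In such bulk RNA, fewer cells of a type and less RNA per cell cannot be told apart.

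Averaged over the 3 days, KO J1 cells had more RNA of ESC genes, germline genes and a set of developmental regulators, and less of the maternally expressed noncoding RNAs of the imprinted Dlk1-Dio3 region, of neuronatin and of embryonic globins. A gene was called when its adjusted p was under 0.05 and its difference at least 1. By that rule 180 genes were higher in KO J1 (0.903% of 19938) and 37 were lower (0.186%), 1.09% in all. Without WT J1 day 7 array 1 these counts were 184 and 94, so the number of falls rests on that array. On each of the 3 days both KO J1 arrays lay on one side of both WT J1 arrays for 131 of the 180 and 23 of the 37. The calls were made on these same arrays and the share over all genes was not computed, so these counts add no support to the calls. The median difference of all genes was -0.04. Of the 217 calls, 152 were made in each of the 12 fits that left out 1 J1 array. On single days 57 genes were higher (0.286%) and 34 lower (0.171%; 0.456% either way) on day 0, 148 higher (0.742%) and 52 lower (0.261%; 1.00%) on day 3, and 581 higher (2.91%) and 276 lower (1.38%; 4.30%) on day 7. The day 0 split was 23 higher and 27 lower without KO J1 array 2 of that day and 34 and 37 without WT J1 array 1. With days 0 and 3 alone the mean difference called 133 genes, 94 higher and 39 lower.

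Among the highest mean differences were those of Zfp980, Zfp640 and Nr0b1. Zfp980, a zinc-finger gene, read 11.53 and 11.42 in KO J1 and 10.65 and 10.63 in WT J1 on day 0, 11.13 and 10.91 in KO J1 and 9.0 and 7.37 in WT J1 on day 3 and 11.18 and 10.85 in KO J1 and 5.72 and 5.65 in WT J1 on day 7. The KO J1 arrays stayed between 10.85 and 11.53 while the WT J1 arrays fell to 5.65 by day 7, and the mean difference was 3.00 (SE 0.227, adjusted p = 8.14e-08). Zfp640, another zinc-finger gene, differed by 2.86 (SE 0.234, adjusted p = 2.28e-07). Zinc-finger genes of this kind have near-identical copies, and probe sets may share their signal, so which copy is read is uncertain. Nr0b1, an X-linked nuclear receptor of the ESC network, read 11.73 and 11.69 in KO J1 and 11.41 and 11.46 in WT J1 on day 0, a difference of 0.27 that was not called. On day 7 it read 11.62 and 11.29 in KO J1 and 6.14 and 5.99 in WT J1, far apart. Its mean difference was 2.75 (SE 0.239, adjusted p = 4.82e-07).

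Other large rises were of several kinds. Cubn encodes cubilin, an endocytic receptor of visceral endoderm and kidney, and its mean difference was 2.51 (SE 0.318, adjusted p = 2.59e-05). Tbx15, a T-box transcription factor of the limb and skull, differed by 2.46 (SE 0.139, adjusted p = 3.63e-09), with KO J1 values from 7.64 to 8.75 and WT J1 values from 5.36 to 6.07. These ranges did not touch. Srgn, the proteoglycan serglycin of secretory granules, differed by 2.68 (SE 0.485, adjusted p = 0.000783) but was called on no single day. Its day 7 difference was 0.65 without WT J1 array 1 and 4.28 without WT J1 array 2. Nexmif, an X-linked gene of neurite growth, differed by 2.26 (SE 0.241, adjusted p = 4.19e-06). Triml2, a gene related to the tripartite motif family, differed by 2.23 (SE 0.197, adjusted p = 5.59e-07). Liph, which encodes a membrane lipase, differed by 2.22 (SE 0.17, adjusted p = 9.55e-08). The differences of Triml2 and Nexmif on day 0, 0.39 and 1.25, did not pass the test.

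Among the falls, Nxf3, an X-linked member of the nuclear RNA export factor family, was low in all KO J1 arrays. It read 5.34 to 6.76 in KO J1 and 8.09 to 9.01 in WT J1, with no overlap, and its mean difference was -2.36 (SE 0.147, adjusted p = 1.07e-08). Slc39a8, a zinc transporter, differed by -1.49 (SE 0.162, adjusted p = 5.17e-06). Cd59a, an inhibitor of complement, differed by -1.38 (SE 0.172, adjusted p = 2.17e-05). Snord118, the small nucleolar RNA that takes part in ribosomal RNA maturation, differed by -1.30 (SE 0.314, adjusted p = 0.0071) and lies on chromosome 11, whose genes as a whole read lower in KO J1 (below). Mixl1, a homeobox gene of the primitive streak, differed by -1.82 (SE 0.388, adjusted p = 0.00288). The day 0 arrays of WT J1 read 7.32 and 9.79 for it, so they were not alike.

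**Figure D1:**
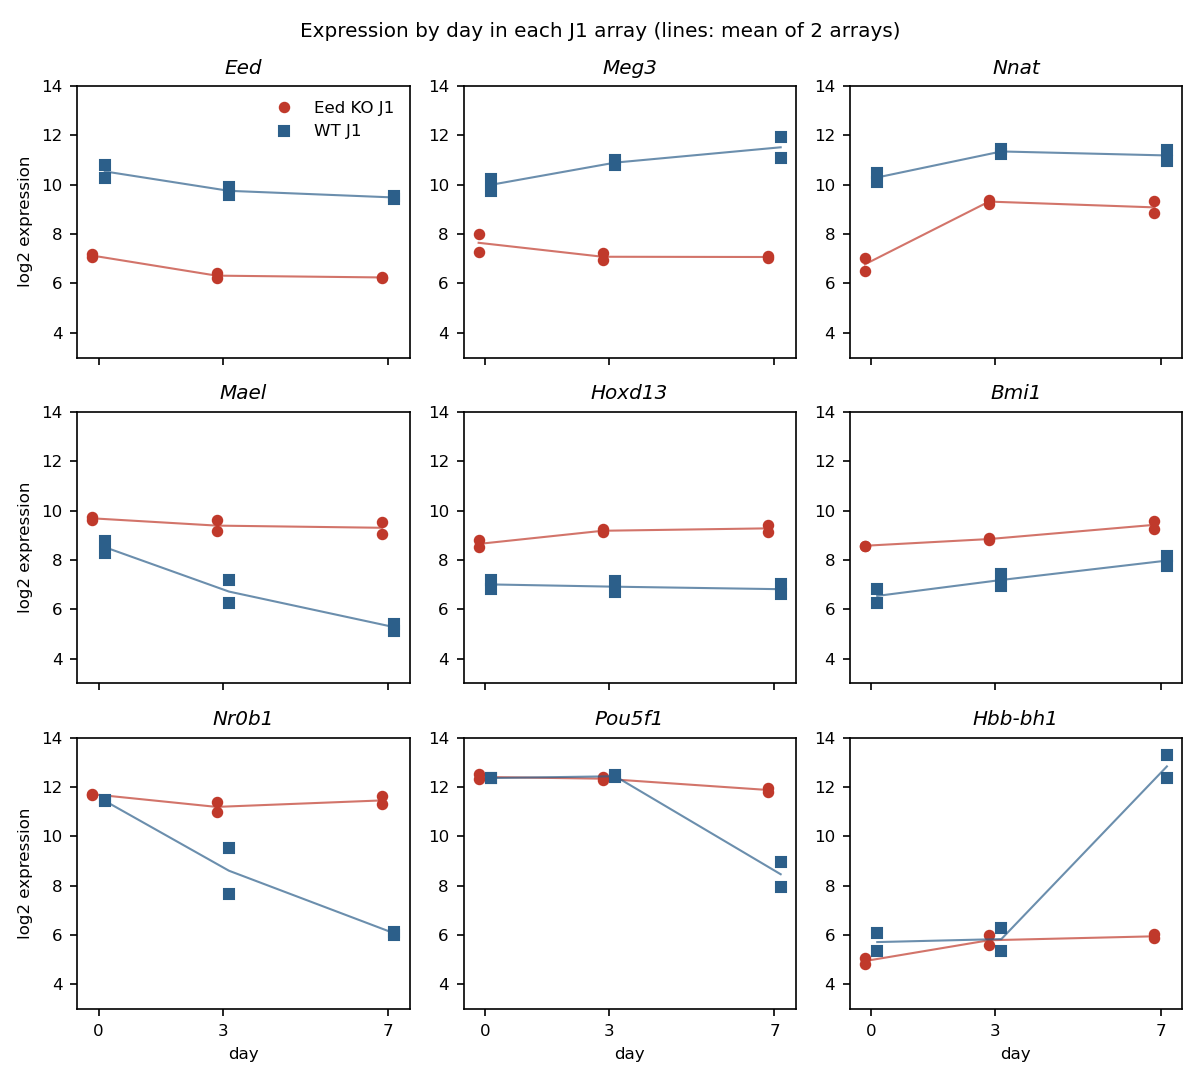
The log2 value of 9 genes in each of the 12 J1 arrays is plotted against the day of differentiation, with circles for KO J1, squares for WT J1 and lines through the mean of the 2 arrays. Eed, Meg3 and Nnat lie lower in KO J1 on all 3 days, Mael, Hoxd13 and Bmi1 lie higher on all 3 days, Nr0b1 parts from day 3, and Pou5f1 and Hbb-bh1 part on day 7.

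Most genes of the ESC state had lower RNA in WT J1 EBs of day 7 than in KO J1 EBs. The lists used here hold 25 core genes, which mark ESCs and epiblast alike, 23 naive genes of the preimplantation state, and 15 primed genes of the later epiblast. On the mean over days 11 of the 25 core genes and 14 of the 23 naive genes were called higher and none was lower. Their median differences were 0.88 and 1.23, beside -0.04 over all genes. None of the 15 primed genes was called by limma, with 6 under an unadjusted p of 0.05.

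The day mattered for both lists. On day 0 limma called none of the 25 core genes, with 3 at an unadjusted p under 0.05, and Tcl1 and Tbx3 were the called naive genes. On day 3 the counts were 5 of 25 core and 14 of 23 naive genes, all higher, with medians of 0.30 and 1.20. On day 7 they were 19 of 25 and 17 of 23, all higher, with medians of 2.14 in each. Without WT J1 day 7 array 1 the day 7 counts were 22 and 16 higher, and without array 2 they were 16 and 18, with none lower in either case. Between day 0 and day 7, 21 of the 25 core genes and 21 of the 23 naive genes fell in WT J1 by the same rule, and 1 and 3 fell in KO J1.

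Pou5f1, the transcription factor OCT4 that ESC identity depends on, read 12.30 and 12.51 in KO J1 and 12.37 and 12.35 in WT J1 on day 0 and 12.27 and 12.40 in KO J1 and 12.48 and 12.39 in WT J1 on day 3. On these days the genotypes overlapped. On day 7 it read 11.80 and 11.96 in KO J1 and 8.98 and 7.95 in WT J1, a difference of 3.41 (SE 0.222, adjusted p = 1.24e-08). Nanog, another core factor, read 11.80 and 12.22 in KO J1 and 11.56 and 12.06 in WT J1 on day 0 and 11.83 and 12.13 in KO J1 and 9.67 and 8.22 in WT J1 on day 7, where it differed by 3.04 (SE 0.372, adjusted p = 2.25e-05). The 2 WT J1 arrays were unlike for both genes on day 7, array 2 being the lower. Without that array the differences over all days were 0.95 for Pou5f1 and 0.90 for Nanog, under the 2-fold minimum, while both day 7 calls stood. Nanog was also under it without WT J1 day 3 array 2, at 0.97. Sox2, the partner of OCT4, read 11.54 and 11.55 in KO J1 and 10.84 and 7.97 in WT J1 on day 7. Its difference there was 2.14 (SE 0.523, adjusted p = 0.0106), but 3.57 without WT J1 array 1 and 0.71 without array 2, so the call rests on the second array.

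Among the naive genes Zfp42, known as REX1, read 10.93 and 11.14 in KO J1 and 10.54 and 10.98 in WT J1 on day 0, 9.75 and 9.88 in KO J1 and 8.48 and 6.04 in WT J1 on day 3 and 10.19 and 9.95 in KO J1 and 6.23 and 6.15 in WT J1 on day 7. WT J1 had lost it by day 3 in array 2 and by day 7 in both arrays, whereas the lowest KO J1 array read 9.75. The mean difference was 2.24 (SE 0.274, adjusted p = 1.76e-05). Esrrb, an orphan nuclear receptor that sustains self-renewal, differed by 2.08 (SE 0.206, adjusted p = 1.81e-06) over the days and by 3.58 on day 7. Tcl1, an activator of the kinase AKT, differed by 2.57 (SE 0.183, adjusted p = 4.76e-08) and was called on each of the 3 days. Its day 0 call was lost in 3 of the 12 fits without 1 array, with a lowest difference of 0.97. Fbxo15 and Dppa5a, both ESC marker genes, differed by 2.02 and 1.85.

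The core list also held Nodal pathway genes. Lefty1 and Lefty2 encode secreted inhibitors of Nodal. Lefty2 differed by 2.14 (SE 0.187, adjusted p = 5.04e-07) over the days. Lefty1 read 10.27 and 10.18 in KO J1 and 9.98 and 9.87 in WT J1 on day 0 and 10.42 and 10.74 in KO J1 and 6.32 and 5.90 in WT J1 on day 7, where the difference was 4.47 (SE 0.321, adjusted p = 4.29e-08). The ligand Nodal itself differed by 1.90 on day 7 and its coreceptor gene Tdgf1 by 2.94, both called. Dppa2, a chromatin factor that works with DPPA4, read 12.43 and 12.41 in KO J1 and 8.16 and 8.32 in WT J1 on day 7 and differed there by 4.18 (SE 0.242, adjusted p = 3.73e-09).

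Dnmt3l, the cofactor of the de novo DNA methyltransferases, had the largest mean difference of the core list. It read 11.37 and 11.55 in KO J1 and 10.12 and 10.55 in WT J1 on day 0, 10.33 and 10.82 in KO J1 and 8.68 and 7.18 in WT J1 on day 3 and 10.35 and 10.73 in KO J1 and 6.16 and 5.68 in WT J1 on day 7. The gap opened with time as the WT J1 value fell, and the mean difference was 2.80 (SE 0.19, adjusted p = 2.31e-08). In the list of 13 DNA methylation and TET enzymes Dnmt3l was the only gene called on the mean. Tet2 was called higher on day 3 (1.20) and Tet1 on day 7 (1.23), calls that were lost in 2 and 1 of the 12 fits without 1 array.

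Of the primed genes, Epha2, Dusp6, Fgf5 and Grhl2 were called higher on day 7, the list's 4 calls there of 15. Epha2, an ephrin receptor, differed by 2.1 (SE 0.276, adjusted p = 4.82e-05). Dusp6, a phosphatase that limits ERK signalling, differed by 1.41 (SE 0.257, adjusted p = 0.00117). The calls of Fgf5 (1.28) and Grhl2 (1.02) were each lost in 2 of the 12 fits without 1 array. Without WT J1 array 1 the primed list had 8 genes higher on day 7, and without array 2 it had 4 higher and 2 lower.

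**Figure D2:**
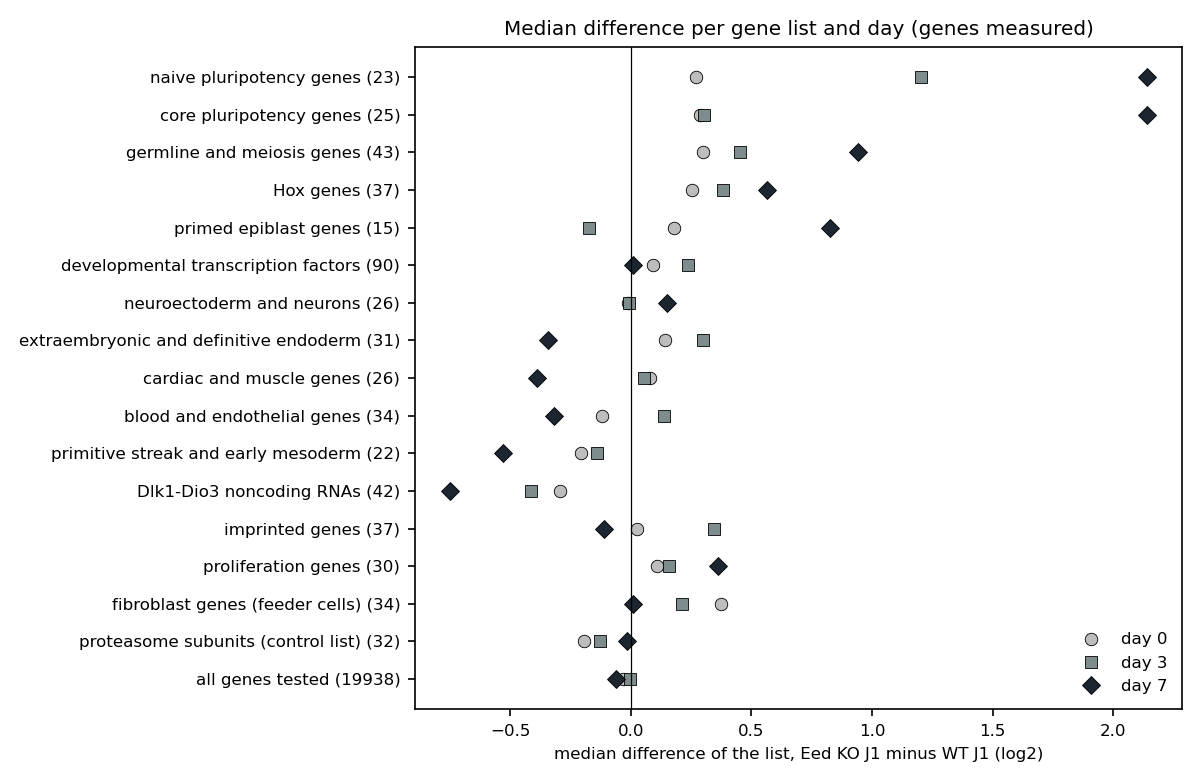
The median log2 difference, KO J1 minus WT J1, of 16 gene lists and of all genes is shown for day 0, day 3 and day 7, with a line at 0. The core and naive pluripotency lists reach 2.14 on day 7, the Dlk1-Dio3 list lies below 0 on each day, and the list of proteasome subunits stays between -0.20 and -0.02.

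Genes of germ cells and meiosis were the second group that was high in KO J1. Some of them were already called on day 0, when no core pluripotency gene was. The mean level on day 0 was nonetheless higher in KO J1 for both lists. It was 7.420 and 7.441 in KO J1 and 7.133 and 7.071 in WT J1 for the germline list. For the core list it was 10.881 and 10.922 in KO J1 and 10.591 and 10.652 in WT J1. Of 43 germline genes 14 were higher and none lower on the mean over days, with a median of 0.66. The counts were 6 on day 0, 8 on day 3 and 21 on day 7, all higher. Without WT J1 day 7 array 1 the day 7 count was 20 and without array 2 it was 21. The number called on the mean was 13 to 16 in the fits without 1 J1 array.

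Mael, a factor of the piRNA pathway that silences transposons in the germline, led the list. It read 9.75 and 9.61 in KO J1 and 8.75 and 8.28 in WT J1 on day 0, 9.17 and 9.61 in KO J1 and 7.17 and 6.26 in WT J1 on day 3 and 9.06 and 9.54 in KO J1 and 5.41 and 5.13 in WT J1 on day 7. KO J1 stayed between 9.06 and 9.75, WT J1 fell between each pair of days, and the groups did not overlap on any day. The mean difference was 2.62 (SE 0.153, adjusted p = 4.09e-09). Tdrd12, another piRNA pathway gene, behaved otherwise on day 0, with 9.95 and 10.39 in KO J1 and 10.36 and 10.56 in WT J1. It differed by 3.59 (SE 0.242, adjusted p = 1.78e-08) on day 7.

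Meiosis genes made up much of the rest. Stag3, a cohesin subunit used in meiosis, read 9.59 and 9.50 in KO J1 and 8.11 and 8.22 in WT J1 on day 0 and 8.59 and 9.02 in KO J1 and 7.76 and 7.72 in WT J1 on day 7. It was called on all 3 days, though in 10, 10 and 11 of the 12 fits without 1 array, and its mean difference was 1.20 (SE 0.133, adjusted p = 6.22e-06). Tex11, an X-linked gene of meiotic recombination, differed by 1.43 (SE 0.136, adjusted p = 1.18e-06), and Tex15, needed for the repair of meiotic breaks, by 1.38 (SE 0.186, adjusted p = 4.89e-05); both were also called on each day. On day 3 Tex11 lost its call without any one of the 4 day 3 arrays (adjusted p from 0.0505 to 0.195) and Tex15 in 9 of the 12 fits (0.0511 to 0.422). Hsf2bp, a recombination factor, differed by 1.59 (SE 0.183, adjusted p = 9.63e-06). Sohlh2, a transcription factor of early germ cells, differed by 1.58 (SE 0.15, adjusted p = 1.19e-06). The RNA-binding proteins of germ cells Dazl and Ddx4 differed by 1.25 and 1.14. On day 7 Sycp3, of the synaptonemal complex, was called at 2.29 and Stra8, induced at meiotic entry, at 1.84.

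The day 0 germline calls rest on little replication. Mael, Smc1b, Tex11 and Tex15 each lost their day 0 call when any one of the 4 day 0 arrays was left out, with the highest adjusted p at 0.249, 0.197, 0.105 and 0.209. Stag3 lost it in 2 of the 12 fits, with a highest adjusted p of 0.0548. Zcwpw1, a meiotic histone reader gene and the sixth, differed by 1.10 on day 0 and lost the call without KO J1 array 2 (adjusted p = 0.06) or WT J1 array 2 (0.93, adjusted p = 0.0626). It was not called on the mean. Each of the other 5 kept its call on the mean over days in every such fit, where the lowest differences were 2.47, 1.05, 1.40, 1.21 and 1.09.

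A pair of short motifs is known from promoters of germline genes that are silent in somatic cells, the E-box CACGTG and the E2F site TCCCGC. Both were searched on both strands of RefSeq promoters (assembly GRCm38.p6, from 250 bases before to 50 after the start), which were at hand for 15614 of the 19938 genes. CACGTG was in 15 of 36 germline promoters (41.7%) and in 9.5% of all promoters. TCCCGC was in 17 of the 36 (47.2%) and in 30.5% of all. Both motifs stood in 8 of the 36 (22.2%), beside 3.9% of all. The 14 called germline genes had 12 promoters in the table, of which 5 held the E-box, 7 the E2F site and 4 both. In the promoters of all 180 genes higher on the mean, 20 of 134 held the E-box (14.9%) and 39 the E2F site (29.1%). A match of letters shows no binding. The 4 promoters with both motifs are shown because they belong to germline genes called higher in KO J1; the capitals mark CACGTG and TCCCGC, or GCGGGA where the site is on the other strand.
Mael promoter, chr1:166238695-166238994, minus strand: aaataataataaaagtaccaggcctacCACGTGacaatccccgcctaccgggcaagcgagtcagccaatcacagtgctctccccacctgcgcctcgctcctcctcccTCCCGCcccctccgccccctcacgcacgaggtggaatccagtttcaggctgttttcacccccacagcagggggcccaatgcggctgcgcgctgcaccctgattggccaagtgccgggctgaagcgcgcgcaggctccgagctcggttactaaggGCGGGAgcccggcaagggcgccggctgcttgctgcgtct
Stag3 promoter, chr5:138280259-138280558, plus strand: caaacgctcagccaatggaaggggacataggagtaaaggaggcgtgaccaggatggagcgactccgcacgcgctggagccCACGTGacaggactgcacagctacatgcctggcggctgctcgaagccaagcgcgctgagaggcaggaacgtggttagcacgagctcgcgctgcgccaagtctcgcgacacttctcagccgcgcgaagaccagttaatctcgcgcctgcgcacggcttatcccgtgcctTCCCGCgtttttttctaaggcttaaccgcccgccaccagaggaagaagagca
Slc25a31 promoter, chr3:40708621-40708920, plus strand: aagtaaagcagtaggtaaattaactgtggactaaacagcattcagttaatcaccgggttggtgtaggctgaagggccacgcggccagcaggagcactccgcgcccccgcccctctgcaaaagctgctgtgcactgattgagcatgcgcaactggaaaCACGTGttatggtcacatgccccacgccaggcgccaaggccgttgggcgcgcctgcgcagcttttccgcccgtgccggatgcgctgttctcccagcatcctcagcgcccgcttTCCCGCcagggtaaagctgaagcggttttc
Ddx4 promoter, chr13:112652261-112652560, minus strand: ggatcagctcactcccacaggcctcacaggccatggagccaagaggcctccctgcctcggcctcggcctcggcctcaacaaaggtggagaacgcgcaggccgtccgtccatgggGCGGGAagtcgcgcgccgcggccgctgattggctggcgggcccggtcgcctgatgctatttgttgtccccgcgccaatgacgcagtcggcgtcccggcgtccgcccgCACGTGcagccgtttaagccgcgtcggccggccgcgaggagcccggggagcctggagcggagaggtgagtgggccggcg

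Slc25a31, whose product is the ADP and ATP carrier of testis mitochondria, differed by 1.23 (SE 0.124, adjusted p = 2.08e-06) and had its E-box in the middle of the window, whereas the E-box of Mael lay near the upstream end. The promoter of Dazl held neither motif, and Dazl was called higher all the same. Genes of oocytes and of the early embryo were few among the calls, 2 of 21 higher on the mean: Ooep (1.19 (SE 0.139, adjusted p = 1.17e-05)) and Khdc3 (1.08 (SE 0.106, adjusted p = 1.57e-06)), which encode subunits of the subcortical maternal complex of the egg. None of 9 genes of the 2-cell-like state was called by limma on the mean or on any day; 3 had an unadjusted p under 0.05 on the mean, and 0, 1 and 4 on days 0, 3 and 7.

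Hox genes, the body-axis regulators that PRC2 is best known for silencing, were called higher in a small posterior group. Of 37 Hox genes 5 were higher and none lower on the mean over days, namely Hoxd13, Hoxd10, Hoxd11, Hoxc13 and Hoxa11. The median of the list was 0.39. The counts were 3 on day 0, 5 on day 3 and 11 on day 7, all higher, and leaving out WT J1 day 7 array 1 or 2 gave 10 and 12 on day 7.

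Hoxd13, the gene at the posterior end of the HoxD cluster, read 8.51 and 8.79 in KO J1 and 7.18 and 6.83 in WT J1 on day 0, 9.25 and 9.11 in KO J1 and 6.68 and 7.15 in WT J1 on day 3 and 9.14 and 9.42 in KO J1 and 6.62 and 7.01 in WT J1 on day 7. The KO J1 arrays were above all WT J1 arrays on every day, and the mean difference was 2.12 (SE 0.123, adjusted p = 4.09e-09). Hoxd10 read 7.37 and 7.54 in KO J1 and 6.09 and 6.20 in WT J1 on day 0 and 9.38 and 9.11 in KO J1 and 6.79 and 7.70 in WT J1 on day 7. From day 0 to day 7 it rose in both genotypes, by 1.79 in KO J1 and 1.10 in WT J1, and its mean difference was 1.67 (SE 0.121, adjusted p = 5.84e-08). Hoxd11 differed by 1.45 (SE 0.129, adjusted p = 5.7e-07) and Hoxc13 by 1.11 (SE 0.0984, adjusted p = 5.74e-07). Hoxa11 (1.02) fell under the 2-fold minimum in 4 of the 12 fits without 1 array, with a lowest difference of 0.94. On day 7 the HoxA genes Hoxa5, Hoxa9, Hoxa10 and Hoxa11 joined, at 1.80, 1.58, 1.71 and 1.84. The HoxA genes lie on chromosome 6, whose genes as a whole read higher in KO J1 (below).

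Most other developmental transcription factors were not called. Of 90 genes 7 were higher and 1, Mixl1, was lower on the mean, with a median of 0.05. Tbx15 and Meis2 had the largest rises. Meis2, a homeobox cofactor of Hox proteins, read 8.26 and 8.73 in KO J1 and 6.36 and 6.64 in WT J1 on day 0 and 9.53 and 9.34 in KO J1 and 6.52 and 7.04 in WT J1 on day 3. On day 7 it read 11.41 and 11.06 in KO J1 and 10.39 and 10.38 in WT J1. The mean difference was 1.83 (SE 0.131, adjusted p = 5.05e-08) and its day 7 difference of 0.85 was not called. En2, a homeobox gene of the midbrain, was higher on all 3 days, with 1.36 (SE 0.125, adjusted p = 9.17e-07) on the mean. Its day 7 difference was 1.66 without WT J1 array 1 and 0.69, under 2-fold, without array 2.

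Tbx20, a T-box factor of the heart, changed sides. It read 8.79 and 8.56 in KO J1 and 6.62 and 5.91 in WT J1 on day 3, a difference of 2.41 (SE 0.349, adjusted p = 0.000797). On day 7 it read 7.51 and 7.62 in KO J1 and 9.31 and 10.54 in WT J1, a difference of -2.36 (SE 0.349, adjusted p = 0.00016). Between these days it rose in WT J1 by 3.66 (called), and no other gene had opposite calls on days 3 and 7. Hand1 and Foxf1, factors of lateral and extraembryonic mesoderm, were lower in KO J1 on day 7 at -2.41 (SE 0.155, adjusted p = 1.14e-08) and -2.01 (SE 0.176, adjusted p = 5.17e-07). Prrx1, a homeobox gene of limb mesenchyme, was higher on day 7 at 2.24 (SE 0.397, adjusted p = 0.000914).

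Of the Polycomb genes themselves, Bmi1 was the called one besides Eed. Bmi1, also PCGF4, is a subunit of Polycomb repressive complex 1 (PRC1). It read 8.58 and 8.57 in KO J1 and 6.26 and 6.82 in WT J1 on day 0, 8.87 and 8.82 in KO J1 and 6.96 and 7.42 in WT J1 on day 3 and 9.57 and 9.27 in KO J1 and 7.77 and 8.18 in WT J1 on day 7. KO J1 was above WT J1 in every array of each day, although WT J1 itself rose by 1.43 from day 0 to day 7. The mean difference was 1.71 (SE 0.132, adjusted p = 1.01e-07), and it was 1 of 20 PRC1 genes called on the mean. On day 7 Phc1 (1.55), Cbx7 (1.46) and L3mbtl2 (1.07) were called higher too, the last of which lost its call in 2 of the 12 fits without 1 array.

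Among 13 PRC2 genes only Eed was called on the mean. Ezh2, the catalytic subunit that EED stimulates, read 11.58 to 11.97 in KO J1 and 11.26 to 11.77 in WT J1 and differed by 0.29. The accessory subunit Jarid2 was called higher on day 7 at 1.14 (SE 0.191, adjusted p = 0.000544), but differed by 0.72 without WT J1 array 2. Phf19, another accessory subunit, differed by 1.02 (SE 0.157, adjusted p = 0.000239) there. It lost its call in 2 of the 12 fits without 1 array.

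Cdkn2a, a cell cycle inhibitor gene that PRC2 and BMI1 are known to silence, was the called one of 6 such inhibitors. It read 8.78 and 8.21 in KO J1 and 7.64 and 7.35 in WT J1 on day 0 and 9.47 and 8.56 in KO J1 and 7.05 and 7.39 in WT J1 on day 7, with no overlap, and its mean difference was 1.40 (SE 0.158, adjusted p = 7.65e-06). Cdkn1c, an imprinted inhibitor, differed by 0.26 and was not called on any day.

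The deepest falls besides Eed were in noncoding RNAs of the Dlk1-Dio3 region of chromosome 12, which are made from the maternal chromosome in one long run from Meg3 over Rian to the microRNA clusters. Of 42 such RNAs 7 were lower and none higher on the mean, with a median of -0.43. The counts were 4 on day 0, 6 on day 3 and 17 on day 7, all lower, and on day 7 the median was -0.75. Without WT J1 day 7 array 1 the day 7 count was 18, and without array 2 it was 13. Probe sets of this region can read the same long transcripts, so the 7 are not 7 separate measurements. DQ267101, an RNA of the region outside the 42, was also called lower on the mean, at -1.32 (SE 0.211, adjusted p = 0.000245), and on days 3 and 7. Mir345, counted among the 42, was not called. Its 5p sequence starts at chr12:108836989, apart from that of Mir337, the next listed, at chr12:109585818.

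Meg3, the long noncoding RNA at the head of the region, read 8.01 and 7.28 in KO J1 and 10.23 and 9.76 in WT J1 on day 0, 6.94 and 7.22 in KO J1 and 10.78 and 11.01 in WT J1 on day 3 and 7.02 and 7.12 in KO J1 and 11.09 and 11.94 in WT J1 on day 7. The highest KO J1 array was below the lowest WT J1 array, and from day 0 to day 7 WT J1 rose by 1.52 while the KO J1 change of -0.58 was not called. The mean difference was -3.54 (SE 0.155, adjusted p = 1.8e-10). Rian, the next transcript, read 5.03 to 5.50 in KO J1 and 6.55 to 8.93 in WT J1, a mean difference of -2.67 (SE 0.176, adjusted p = 1.74e-08). Its call on day 0 was lost without KO J1 array 2 (adjusted p = 0.0974) or WT J1 array 1 (adjusted p = 0.0853). The RNA listed as DQ267102, chosen here after its value was seen, differed by -4.57 (SE 0.258, adjusted p = 3.63e-09).

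The 4 called microRNA genes of the named set are shown with the mature sequences of their hairpins, to set their seeds side by side. Seeds, bases 2 to 8, are in capitals, and the sequences are RefSeq's (GRCm38.p6). The array reads the gene or its hairpin transcript and not the mature microRNA.
mmu-miR-377-5p: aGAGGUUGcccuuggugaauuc
mmu-miR-377-3p: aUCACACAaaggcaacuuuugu
mmu-miR-380-5p: aUGGUUGAccauagaacaugcg
mmu-miR-380-3p: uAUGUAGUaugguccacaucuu
mmu-miR-382-5p: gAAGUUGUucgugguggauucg
mmu-miR-382-3p: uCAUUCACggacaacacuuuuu
mmu-miR-134-5p: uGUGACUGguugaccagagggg
mmu-miR-134-3p: cUGUGGGCcaccuagucacc

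The 8 seeds differ from each other. The 3p sequence of Mir377 lies at chr12:109740553-109740574 on the plus strand. Mir377 read 3.95 to 4.41 in KO J1 and 5.09 to 7.01 in WT J1. It was the one microRNA gene called lower on all 3 days, but the day 0 call was lost without any one of the 4 day 0 arrays (adjusted p from 0.0814 to 0.204) and the day 3 call without KO J1 array 1 (adjusted p = 0.0978), KO J1 array 2 (0.23) or WT J1 array 1 (0.177). Its difference was -1.89 (SE 0.207, adjusted p = 5.59e-06) on the mean. Mir380 differed by -1.71 (SE 0.229, adjusted p = 4.53e-05), Mir382 by -1.27 (SE 0.174, adjusted p = 5.66e-05) and Mir134 by -1.29 (SE 0.159, adjusted p = 1.84e-05). Values near 4 are close to the floor of these arrays, so the depth of these falls is limited by the signal over background. On day 7 a further 10 microRNA genes of the region were called, from Mir300 at -1.45 to Mir376a at -1.01.

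Imprinted genes elsewhere moved in both directions. Of 37 imprinted genes, which include Meg3 and Rian, 2 were higher, Igf2 and Sfmbt2, and 3 lower on the mean. Nnat, the paternally expressed neuronatin gene of chromosome 2, was lower on all 3 days. It read 6.52 and 7.03 in KO J1 and 10.49 and 10.10 in WT J1 on day 0, 9.23 and 9.40 in KO J1 and 11.43 and 11.26 in WT J1 on day 3 and 9.32 and 8.84 in KO J1 and 10.97 and 11.40 in WT J1 on day 7. It rose in both genotypes between days 0 and 3, and the gap was widest on day 0. The mean difference was -2.55 (SE 0.168, adjusted p = 1.74e-08). Igf2, the fetal growth factor, was higher on day 3 at 2.48 (SE 0.249, adjusted p = 1.63e-05). Its mean difference was 1.05, and it was under 2-fold without KO J1 day 0 array 1 (0.96), WT J1 day 0 array 2 (0.99) or WT J1 day 7 array 1 (0.94). Sfmbt2, a Polycomb-related gene imprinted in the placenta, differed by 1.11 (SE 0.199, adjusted p = 0.000705) on the mean, and by 0.94 without WT J1 day 7 array 1. The fits without WT J1 day 0 array 1 and day 3 array 2 also took Sfmbt2 under 2-fold, at 0.93 and 0.95.

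The Mir302 genes, which make microRNAs of early embryonic cells, were lower in KO J1 only in part, and these values were picked after they were seen. Mir302a, Mir302c and Mir302d were called on the mean over days, at -1.59 (SE 0.448, adjusted p = 0.0187), -1.45 (SE 0.453, adjusted p = 0.0315) and -1.33 (SE 0.369, adjusted p = 0.017). Mir302b (-1.10) and Mir367 (-0.95) were not, and none was called on a single day. The WT J1 day 0 arrays were far apart, at 4.36 and 7.64 for Mir302a. The 3 calls were made in 8, 5 and 9 of the 12 fits without 1 array. In the mature 3p forms of Mir302b, Mir302c and Mir302d the same run of bases recurs, and in miR-302c it starts at another position:
mmu-miR-302b-3p: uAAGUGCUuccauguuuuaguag
mmu-miR-302d-3p: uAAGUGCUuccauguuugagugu
mmu-miR-302c-3p: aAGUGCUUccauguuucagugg

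In undifferentiated cells few differences were called, and none was of a core ESC gene. Of the 91 calls of day 0, 34 were made in each of the 12 fits without 1 array. The named rises were Cubn, Bmi1, Meis2, Khdc3, Tex13b and Inpp5d. Khdc3 read 8.67 and 8.93 in KO J1 and 7.06 and 6.85 in WT J1, a difference of 1.85 (SE 0.183, adjusted p = 3.1e-05). Tex13b, an X-linked testis gene, read 7.04 and 6.67 in KO J1 and 5.02 and 5.23 in WT J1. It differed by 1.73 (SE 0.235, adjusted p = 0.000779) on day 0 and was not called on day 3 or day 7. Inpp5d, a lipid phosphatase of blood cells and ESCs, differed by 1.72 (SE 0.365, adjusted p = 0.021), a call that was lost without any one of the 4 day 0 arrays (adjusted p from 0.11 to 0.187). Cubn read 9.12 and 7.95 in KO J1 and 6.17 and 5.93 in WT J1. Its day 0 call was lost in the same 4 fits, with adjusted p from 0.0578 to 0.287.

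The named falls of day 0 were Nnat, Gbp2b, Meg3, Nxf3, Lncenc1 and Rian. Gbp2b, an interferon-inducible GTPase, read 6.70 and 6.61 in KO J1 and 8.80 and 9.43 in WT J1 and differed by -2.46 (SE 0.259, adjusted p = 5.42e-05). The related Gbp3 differed by -1.73 (SE 0.26, adjusted p = 0.00176) and was the only one of 21 interferon response genes called on day 0. That list leaves out Gbp2b, so the count does not cover every interferon-inducible gene. The mean level of the list on day 0 was 7.007 and 7.032 in KO J1 and 7.294 and 7.407 in WT J1. Lncenc1, a long noncoding RNA of naive ESCs, read 10.34 and 10.44 in KO J1 and 12.15 and 12.33 in WT J1 and differed by -1.86 (SE 0.357, adjusted p = 0.0107). That call was lost without any one of the 4 day 0 arrays, with adjusted p from 0.0656 to 0.099. On day 7 the same RNA read 9.89 and 10.32 in KO J1 and 8.27 and 7.40 in WT J1 and was higher in KO J1 by 2.27 (SE 0.357, adjusted p = 0.000292), so it was the only gene with opposite calls on days 0 and 7. Feeder cells were in the day 0 cultures by protocol. No one of 34 fibroblast genes was called on day 0 by limma, with 8 at an unadjusted p under 0.05. The mean level of this list was nonetheless higher in KO J1, at 8.645 and 8.322, than in WT J1, at 8.136 and 7.949. On day 3 it was 7.805 and 7.803 in KO J1 and 7.472 and 7.513 in WT J1, and on day 7 the genotypes overlapped. The defining markers Col1a1, Col1a2, Col3a1, Thy1 and Dcn were above the floor of the arrays in both genotypes. Dcn, which encodes the matrix proteoglycan decorin, read 8.29 and 8.70 in KO J1 and 7.97 and 7.77 in WT J1, and Thy1, a fibroblast surface protein, read 9.37 and 8.81 in KO J1 and 8.77 and 8.06 in WT J1. The part of feeder cells in the values of any day was not tested.

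On day 3 14 of 23 naive pluripotency genes were higher in KO J1 (above), and Mixl1 and Wnt8a were lower. Mixl1 was the call among 22 primitive streak and early mesoderm genes, with none higher. Of the 200 calls of day 3, 54 were made in each of the 12 fits without 1 array. The 6 named rises were Zfp640, Zfp980, Mael, Meis2, Dnmt3l and Tcl1. The cardiac list had 2 genes higher of 26, Tbx20 (above) and the zinc-finger factor Gata4. Gata4 read 8.95 and 9.06 in KO J1 and 7.55 and 7.93 in WT J1 and a difference of 1.26 (SE 0.222, adjusted p = 0.00404). Its call was lost in 1 of the 12 fits. Mixl1 read 7.34 and 7.15 in KO J1 and 11.33 and 9.06 in WT J1, and the WT J1 arrays were 2.26 apart. It differed by -2.95 (SE 0.672, adjusted p = 0.0226), and the adjusted p was 0.0937 without KO J1 array 1, 0.204 without KO J1 array 2 and 0.183 without WT J1 array 1. Wnt8a, a Wnt ligand of the streak, differed by -1.77 (SE 0.418, adjusted p = 0.0275), a call lost in 3 of the 12 fits. Chst1, a sulfotransferase gene, read 7.50 and 7.34 in KO J1 and 9.16 and 9.88 in WT J1 and differed by -2.1 (SE 0.232, adjusted p = 5.81e-05). Cd59a differed by -2.19 (SE 0.297, adjusted p = 0.000482) on that day.

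Day 7 had the most calls, which beside the pluripotency genes included falls of globins and of some heart and endoderm genes. Of the 857 calls of that day 395 were made in each of the 12 fits without 1 array. Without WT J1 array 1 the fit called 867 genes higher and 784 lower, and without array 2 it called 681 and 220. Of the 857 calls 748 were kept in the first case and 546 in the second.

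Embryonic globins showed the largest falls on day 7. Hbb-bh1, a beta-like globin of the first red cells, read 4.84 and 5.05 in KO J1 and 5.36 and 6.07 in WT J1 on day 0, 6.0 and 5.58 in KO J1 and 5.37 and 6.30 in WT J1 on day 3 and 6.03 and 5.87 in KO J1 and 12.37 and 13.29 in WT J1 on day 7. It was high in both WT J1 day 7 arrays and in no KO J1 array, and differed by -6.88 (SE 0.325, adjusted p = 3.19e-10) on day 7. Hbb-y, its neighbour in the same cluster, read 6.38 and 5.74 in KO J1 and 11.74 and 13.14 in WT J1 on day 7. The embryonic alpha-like globin Hba-x read 7.08 and 7.19 in KO J1 and 11.87 and 13.23 in WT J1 and differed by -5.41 (SE 0.297, adjusted p = 1.89e-09). Hbb-y and Hbb-bh1 are paralogs, and their probe sets may share signal. Alas2, the first enzyme of heme synthesis in red cells, read 5.93 and 5.98 in KO J1 and 7.96 and 11.11 in WT J1 on day 7 and differed by -3.58 (SE 0.569, adjusted p = 0.00032), or -5.16 and -2.0 without WT J1 array 1 or 2.

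Of the 34 blood and endothelial genes 9 were lower on day 7 and none higher. Beside the globins and Alas2 they were the transcription factors Gata1, Nfe2, Spi1, Gfi1b and Klf1. Gata1, the master regulator of red cells, differed by -1.78 and kept its call in all 12 fits without 1 array. The others lost theirs in 1 to 3 of them. The count itself turned on 1 array: without WT J1 array 1 there were 16 lower and none higher, and without array 2 there were 5 lower and 8 higher. On the mean over days 4 of the 34 were lower, the globins and Alas2. Alas2 fell under 2-fold on the mean without array 2, at -0.69. Plek, a platelet and leukocyte protein, read 6.33 and 6.16 in KO J1 and 7.65 and 11.91 in WT J1 on day 7, and the WT J1 arrays were 4.26 apart.

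Heart and endoderm counts also turned on the WT J1 arrays. Of 26 cardiac and muscle genes 5 were lower on day 7, 10 without array 1 and 1 without array 2. Actc1, cardiac actin, read 7.89 and 8.13 in KO J1 and 8.83 and 10.55 in WT J1 and differed by -1.69 (SE 0.365, adjusted p = 0.00456). Its difference was -2.55 without WT J1 array 1 and -0.83, under 2-fold, without array 2. Myl4, an atrial myosin light chain, read 7.91 and 7.97 in KO J1 and 7.81 and 10.96 in WT J1 and was not called. Of 31 endoderm genes 3 were lower and 1, Cubn, higher, against 11 lower without array 1 and 3 lower and 2 higher without array 2. The lower ones were Ttr, Tdo2 and Fgb. Ttr, the transthyretin of visceral endoderm and liver, differed by -2.65 in the full fit, with a range of -4.69 to -0.61 over the fits without 1 array. Fgb, a fibrinogen chain, was called in 1 of the 12 fits only. Cdh6, a cadherin, read 8.15 and 7.61 in KO J1 and 10.90 and 10.14 in WT J1 and differed by -2.64 (SE 0.257, adjusted p = 1.9e-06).

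Primitive streak and early mesoderm genes had 5 of 22 lower and 1 higher on day 7; the lower ones were Hand1, Foxf1, Mesp1, Cdx2 and Tbx6. Mesp1, of the earliest heart mesoderm, had a range of -2.04 to -0.25 over the fits without 1 array, while Hand1 kept -2.42 to -2.40. For neuroectoderm the 26 genes gave 1 call on day 7, Stmn2 at 1.5, but 9 higher and 1 lower without array 1 and 4 lower without array 2. Zic1, a neural zinc-finger gene, read 9.05 and 8.74 in KO J1 and 9.88 and 6.09 in WT J1, so that its mean difference of 1.31 (SE 0.38, adjusted p = 0.0221) became 0.68 without array 2. That call was also lost without KO J1 day 7 array 1 (adjusted p = 0.052) and without WT J1 day 0 array 1 (adjusted p = 0.0549). Fabp7, a fatty acid binding protein of neural stem cells, read 7.24 to 9.09 in KO J1 and 8.07 to 10.91 in WT J1 and differed by -1.53 (SE 0.292, adjusted p = 0.00126) on the mean. Its mean difference was -1.11 without WT J1 day 7 array 1 and -1.94 without array 2.

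**Figure D3:**
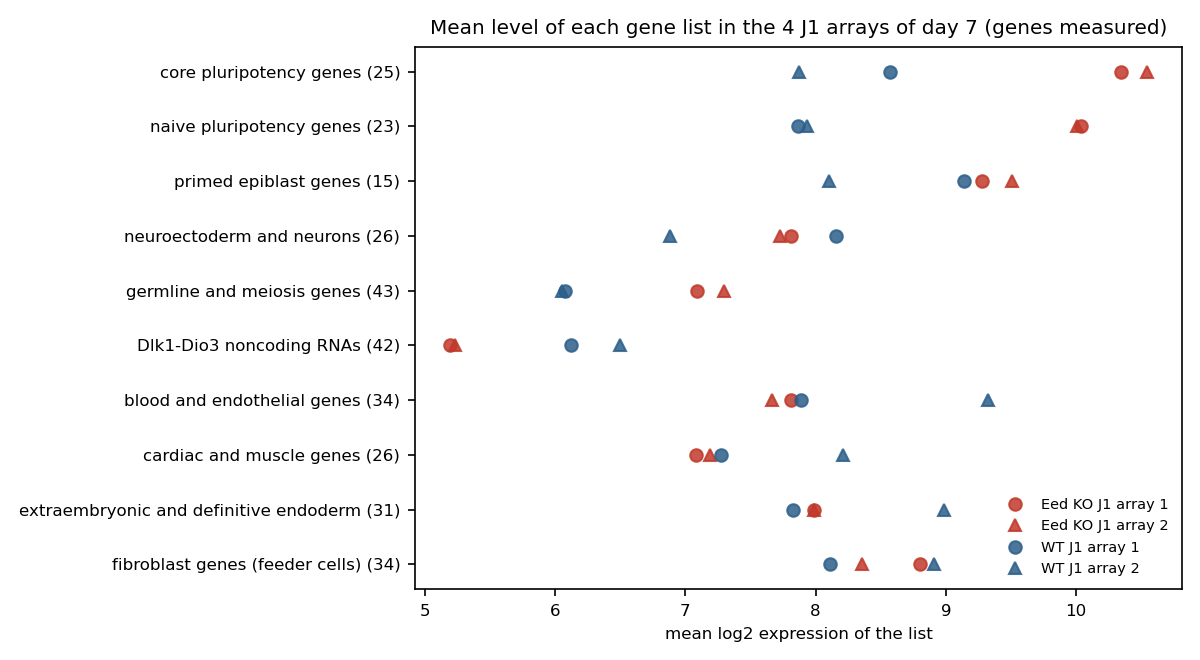
The mean log2 value of 10 gene lists is plotted for each of the 4 J1 arrays of day 7, KO J1 arrays 1 and 2 and WT J1 arrays 1 and 2. The WT J1 arrays part most in the blood, endoderm, neuroectoderm and primed lists, and both KO J1 arrays lie above both WT J1 arrays in the core, naive, primed and germline lists.

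The difference between the genotypes changed with the day for pluripotency genes on one side and globins on the other. Over the whole course, days 0 to 7, 314 genes (1.57%) changed unequally in the 2 genotypes, 263 more positively in KO J1 (1.32%) and 51 more negatively (0.256%). From day 3 to day 7 this was so for 204 (1.02%), 150 more positively (0.752%) and 54 more negatively (0.271%), and from day 0 to day 3 for 8 (0.0401%), 5 (0.0251%) and 3 (0.0150%). Without WT J1 day 7 array 1 the split was 609 more positively and 668 more negatively over days 0 to 7 and 436 and 626 over days 3 to 7, and without array 2 it was 395 and 159 and 248 and 139. The excess of positive changes thus depends on array 1. WT J1 itself changed 827 genes upward (4.15%) and 808 downward (4.05%; 8.20% in all) between days 0 and 7, and KO J1 changed 382 (1.92%) and 87 (0.436%), or 2.35% in all. Of the genes with a more positive change, 221 of the 263 fell in WT J1 (84.0%), and 8 of them fell in KO J1 (3.0%). Of the 51, 46 rose in WT J1 (90.2%). The interaction is the KO J1 change minus the WT J1 change, so the choice of these genes favours such counts.

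Nr0b1 had the largest positive interaction, 5.12 (SE 0.586, adjusted p = 6.3e-05), followed by Zfp980 at 4.5 (SE 0.556, adjusted p = 0.000128). Lefty1 differed in its change by 4.17 (SE 0.454, adjusted p = 3.81e-05) and Lncenc1 by 4.13 (SE 0.504, adjusted p = 0.000124). Tdrd12 differed by 3.88 (SE 0.342, adjusted p = 3.93e-06). Slc7a3, a transporter of basic amino acids that is high in ESCs, read 11.37 and 11.50 in KO J1 and 8.44 and 7.08 in WT J1 on day 7 after 11.76 to 11.93 in all 4 arrays of day 0. Its interaction was 3.78 (SE 0.402, adjusted p = 3.05e-05). On the negative side stood Hbb-bh1 at -6.11 (SE 0.459, adjusted p = 8.76e-07), Hbb-y at -6.01 (SE 0.483, adjusted p = 1.33e-06) and Hba-x at -5.07 (SE 0.419, adjusted p = 1.71e-06). Tbx20 and Cdh6 followed at -3.23 and -3.15. Alas2, at -3.45, lost this call in 6 of the 12 fits without 1 array.

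The 8 genes whose genotype difference changed between days 0 and 3 were Hapln1, Ifitm1, Gadd45b, Krt17 and Klhl13 on the positive side and Khdc3, Mllt10 and Nlrp4f on the negative. Hapln1, a link protein of the extracellular matrix, read 5.86 and 5.83 in KO J1 and 6.19 and 5.68 in WT J1 on day 0 and 7.89 and 7.70 in KO J1 and 5.59 and 5.75 in WT J1 on day 3. It rose in KO J1 alone over that interval. Ifitm1, an interferon-induced membrane protein that ESCs express at high levels, read 12.62 and 12.86 in KO J1 and 11.56 and 10.41 in WT J1 on day 3, where WT J1 was the lower. Mllt10, a cofactor of the histone methyltransferase DOT1L, read 10.15 and 10.17 in KO J1 and 8.82 and 8.61 in WT J1 on day 0 and 10.25 and 10.30 in KO J1 and 10.21 and 10.05 in WT J1 on day 7. Its day 7 difference of 0.14 was not called. The count of 8 did not hold when 1 array was left out, and Ifitm1 and Klhl13 each lost the call in 9 of the 12 such fits: it was 0 to 39 in the fits without 1 array, and the 4 fits that called 0 by limma had 650 to 804 genes at an unadjusted p under 0.05. With the 12 J1 arrays alone limma called 0 genes, with 683 at an unadjusted p under 0.05.

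Whole chromosomes differed between the 2 J1 clones. Over 8298 expressed genes with a known chromosome (mean log2 value of at least 8), the median difference was 0.07, and on 18 of 20 chromosomes it lay between 0.05 and 0.13. On chromosome 11 it was -0.24, and 85.3% of its 700 expressed genes were below 0. On chromosome 6 it was 0.33, with 87.2% of 375 genes above 0. Along chromosome 11 the median was -0.235 to -0.268 in each of 4 equal stretches of the gene order, and along chromosome 6 it was 0.277 to 0.389.

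Relative to the mean of the 24 arrays, the chromosome 11 median was 0.191 to 0.271 in the 6 WT J1 arrays and -0.071 to -0.017 in the 18 arrays of the 3 other clones, with no overlap. For chromosome 6 the median was 0.075 to 0.231 in KO J1, -0.092 to -0.042 in WT J1, 0.057 to 0.130 in KO E14 and -0.258 to -0.185 in WT V6.5. Chromosome 11 has 7.87% of the genes tested, and held 7 of the 37 lower (18.9%) and 1 of the 180 higher calls on the mean and 51 of the 276 lower calls of day 7 (18.5%). Chromosome 6 has 5.53% of the genes tested, and held 15 of the 180 higher calls on the mean (8.33%) and 57 of the 581 of day 7 (9.81%). With the genes of both chromosomes left out the counts were 193 on the mean, 75, 176 and 717 on days 0, 3 and 7. Genomic copy number was not measured here, and its part in these shifts was not tested. Hba-x and Snord118 lie on chromosome 11, and Nanog and the HoxA genes on chromosome 6.

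**Figure D4:**
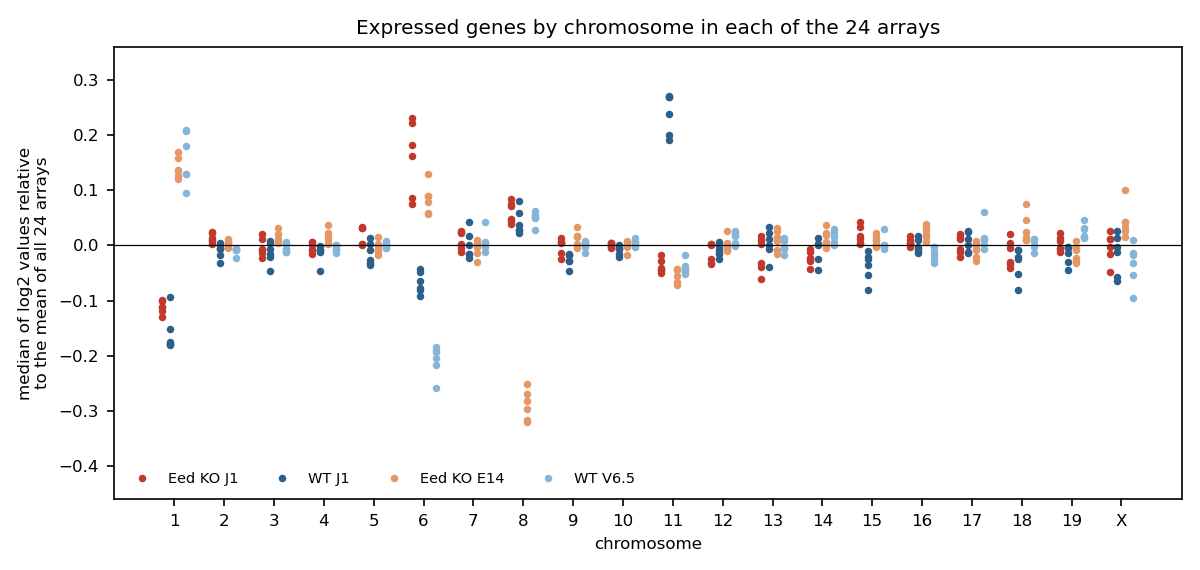
For each chromosome the median, over expressed genes, of the log2 value relative to the mean of all 24 arrays is plotted for each array, coloured by the 4 clones. On chromosome 11 the 6 WT J1 arrays lie at 0.191 to 0.271, above the other 18 arrays, and on chromosome 6 the 6 KO J1 arrays lie above the WT J1 arrays.

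The other pair of clones offers a comparison that shares no array with J1. Between KO E14 and WT V6.5, 363 genes were higher on the mean over days (1.82%) and 60 lower (0.301%), 2.12% in all. Of the 180 genes higher in KO J1, 116 were among them (64.4% of the 180 and 32.0% of the 363). Of the 37 lower in KO J1, 14 were lower there too (37.8% of the 37 and 23.3% of the 60). The sign was the same for 174 of the 180 and 32 of the 37. The share of equal signs over all genes was not computed, so these counts of signs have no baseline. The 14 were Eed, Nnat, the 3 embryonic globins, Alas2 and, in the Dlk1-Dio3 region, Meg3, Rian, DQ267101, DQ267102, Mir377, Mir380, Mir382 and Mir134, with Meg3 at -3.64 and Hbb-bh1 at -2.80 in the other pair. Rises in both pairs were Mael (3.28 there), Hoxd13 (2.08), Zfp42 (2.46), Bmi1 (1.20) and Cdkn2a (1.28).

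The size of the difference was itself unlike between the pairs for 215 genes, 75 with a higher value in the J1 pair (0.376%) and 140 with a lower one (0.702%), 1.08% in all. With each array centred on its median the split was 117 higher and 102 lower, so which side held more turned on the scaling. Without WT J1 day 7 array 1 it was 105 and 229. Of the 75 higher ones 22 were on chromosome 8 (29.3%, beside 4.83% of the genes tested), whose median over expressed genes was -0.387 between KO E14 and WT V6.5 and 0.086 in J1. Of the 140 lower ones 23 were on chromosome 11 (16.4%, beside 7.87%). Of the 180 and 37 genes called in J1, 22 and 10 were among them. On the lower side Nxf3 had the largest such difference, -3.61 (SE 0.208, adjusted p = 6.64e-09), since it was lower in KO J1 but higher in KO E14 at 1.25. Gbp2b did the same, at -2.42 (SE 0.211, adjusted p = 3.31e-06). Mir382, lower in both pairs, was less so in J1, with a pair difference of 1.76 (SE 0.246, adjusted p = 0.00021). Platr8, a noncoding RNA of ESCs, was higher in KO J1 (1.43) and not called in the other pair (-0.53), with a pair difference of 1.96 (SE 0.281, adjusted p = 0.000262). Bnc2, a zinc-finger gene, differed by 1.17 in J1, or 0.84 without WT J1 day 7 array 1, and by -0.35 in the other pair. Nnat was lower in both, with a difference of -2.55 in J1 and -1.15 in the other pair, and the pair difference was -1.41 (SE 0.237, adjusted p = 0.000915).

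For several genes that separated the pairs the J1 difference was small. Mid1, an X-linked ubiquitin ligase gene, differed by -0.21 in J1 and -3.31 in the other pair. Fmr1nb, Gstk1, Xlr and Eif2s3y differed by 0.72, 0.11, 0.02 and -0.61 in J1, none of them called, and by 3.20, 2.22, 2.02 and 1.6 in the other pair, all called. Eif2s3y is on the Y chromosome, and its values of 9.27 to 9.68 in KO J1 and 9.88 to 10.52 in WT J1 lie well above the floor of the arrays in all 12. Of 5 interferon response genes with a called pair difference, all were lower in the J1 pair; none of the 21 was called on the mean within J1.

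**Figure D5:**
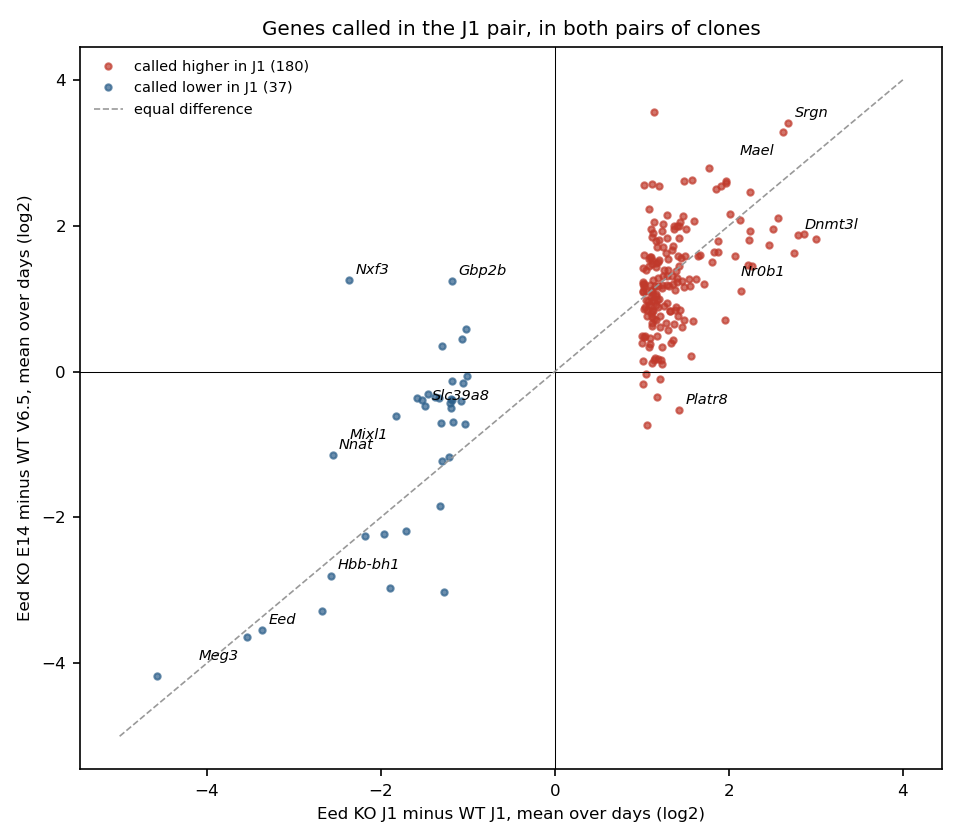
Each of the 217 genes called on the mean over days in J1 is placed by its log2 difference in J1, KO minus WT, on the horizontal axis and by that of KO E14 minus WT V6.5 on the vertical axis, with a dashed line where both are equal. The J1 calls chose these genes, so the horizontal gap around 0 is set by that choice. The sign is the same in both pairs for 174 of the 180 higher and 32 of the 37 lower genes, and the share over all genes was not computed.

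The remaining lists had few calls. On the mean over days none of 30 proliferation genes, 26 cardiac genes, 32 proteasome subunits, 23 genes of hypoxia and glycolysis, 21 interferon response genes and 8 Y-linked genes was called by limma. Of these lists 16, 9, 15, 11, 7 and 6 genes had an unadjusted p under 0.05, with differences under 2-fold. The mean level of the Y-linked list was 6.204 to 6.430 in KO J1 and 6.476 to 6.572 in WT J1, with no overlap. Uba1y, a Y-linked gene, went the other way: its genotype difference moved upward by 1.75 between days 0 and 7. The proteasome subunits, taken as a list with no bearing on PRC2, had a mean level of 11.08 to 11.28 in KO J1 and 11.04 to 11.43 in WT J1. On day 0 this level was 11.169 and 11.275 in KO J1 and 11.355 and 11.429 in WT J1. On day 3 it was 11.181 and 11.244 in KO J1 and 11.287 and 11.301 in WT J1. On day 7 KO J1 was the higher, at 11.083 and 11.082 against 11.054 and 11.044. The list was thus not flat within days. Trophoblast genes had 2 of 19 higher, Tfap2c and Rhox9, at 1.09 (SE 0.145, adjusted p = 4.23e-05) and 1.03 (SE 0.226, adjusted p = 0.00354). Both fell short of 2-fold without WT J1 day 7 array 1, at 0.996 and 0.78, Tfap2c also without WT J1 day 3 array 2 (0.95) and Rhox9 without WT J1 day 0 array 1 (0.99). Pmaip1, a pro-apoptotic gene, was the called one of 18 p53 targets at 1.13 (SE 0.124, adjusted p = 5.7e-06). Of 34 fibroblast genes Mmp3, a matrix protease, and Prrx1 were higher on the mean, at 1.35 (SE 0.299, adjusted p = 0.00397) and 1.28 (SE 0.229, adjusted p = 0.000735). On day 7, where WT J1 array 2 was high for fibroblast genes, the list had 4 higher and 3 lower, against 3 and 8 without array 1 and 5 and 0 without array 2.

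Genes called the same way on each of the 3 days were 19 higher and 7 lower. The 19 were AU015836, Bmi1, Cubn, Dusp9, En2, Gprc5a, Hoxc13, Hoxd10, Hoxd13, Hspb1, Mael, Myof, Nxt2, Pde8a, Stag3, Tbx15, Tcl1, Tex11 and Tex15. The 7 were DQ267102, Eed, Meg3, Mir377, Nnat, Nxf3 and Rian. They were picked by their calls after the values were seen, and 4 of the 19 are on the X chromosome, which has 3.73% of the genes tested. All 12 fits without 1 array kept the day 0 call of Bmi1, Dusp9, En2, Hoxd13, Nxt2, Tbx15, DQ267102, Eed, Meg3, Nnat and Nxf3. The others lost it in some of these fits: AU015836, Gprc5a and Myof kept it in 8, Hspb1 in 9 and Pde8a in 11. Some day 3 calls, such as those of Myof and Pde8a, were lost in part of the fits too. Another 718 genes were called on day 7 and on neither of the earlier days.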

How the data were processed

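Gene expression was measured on Affymetrix Mouse Gene 1.0 ST arrays. The deposited values are log2 intensities that the authors computed with RMA in Affymetrix Power Tools, per the submitters' processing notes; for versions, annotation and genome build, the sources used here give nothing. RMA normalizes arrays to the same distribution, so a change in total RNA cannot be seen, and low values are compressed. The table holds 35556 probe sets with values from 2.08 to 14.42. Of these 21789 had 1 gene symbol in the platform annotation, 12146 had no entry, and the 1621 with several symbols stayed out. Symbols were updated through RefSeq gene IDs (21698 matched). For 999 genes with several probe sets the one with the highest mean was used, which gave 19938 genes. No read depth applies; 2 arrays per group limit the precision.

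The values were fitted without further normalization with limma 3.58.1 in R 4.3.3 (lmFit and eBayes), with 1 mean per line, genotype and day over all 24 arrays, so that 12 residual degrees of freedom share the spread. WT J1 of day 7, whose arrays were less alike, was thus judged by a spread shared with closer groups. A fit without 1 array took the group of that array out of the shared spread, which by itself can change the number of calls. Contrasts were KO J1 minus WT J1 on each day, their mean, the differences between days, and the J1 difference minus that of KO E14 and WT V6.5. P-values were adjusted by Benjamini-Hochberg over all genes, and a call needs an adjusted p under 0.05 and 2-fold. Replicate numbers were not taken to pair the arrays: correlations of deviations ran from -0.236 to 0.47, and 7 of 15 were above 0.1, among them all 6 between KO J1 of the 3 days and WT J1 of day 0. The code was tested on simulated data.

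The comparison, the 27 gene lists and their members were chosen with earlier results of these data known. Genes were named by a fixed rule: the 12 largest called rises and falls on the mean and the 6 largest on each day whose arrays do not overlap, the 6 largest each way for the interactions and for the difference between pairs, up to 4 members per list (called ones first), and the genes Cdkn1c, Cdkn2a, Zfp42, Sox2, Nanog, Pou5f1 and Eed. Predicted genes and genes whose probe sets disagree were passed over. Other genes are named as members of a list. The alternatives were J1 arrays alone, a replicate block, quantile normalization, median centring, a low-value filter, means of probe sets, a trended robust prior, array weights, an additive model, no fold minimum, and each J1 array left out. Lists are described by counts and medians, with no set test.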

Additional observations from a re-analysis of the deposited data

Results flagged for a closer look

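Each gene or count below was singled out because 2 effects under the same contrast differed by a test of the difference itself (limma, adjusted over all genes). The counts of such genes were 8 for day 0 against day 3, 314 for day 0 against day 7, 204 for day 3 against day 7, and 215 for the J1 pair against the E14 and V6.5 pair.

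Between days 0 and 7 the genotype difference moved upward by 5.12 in Nr0b1, 4.5 in Zfp980, 4.17 in Lefty1, 4.13 in Lncenc1 (from -1.86 to 2.27), 3.88 in Tdrd12 and 3.78 in Slc7a3. It went the other way by -6.11 in Hbb-bh1, -6.01 in Hbb-y, -5.07 in Hba-x, -3.45 in Alas2, -3.23 in Tbx20 and -3.15 in Cdh6. Each of these but Alas2 kept its call in all 12 fits without 1 J1 array.

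Between days 0 and 3 the changes were 2.22 in Hapln1, 1.97 in Ifitm1, 1.74 in Gadd45b, 1.73 in Krt17 and 1.54 in Klhl13. On the negative side they were -1.65 in Khdc3, -1.23 in Nlrp4f and -1.22 in Mllt10. Each of these genes lost its call with the J1 arrays alone (limma, adjusted p from 0.36 to 0.468). Each also lost it in some of the fits that left out a J1 array.

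Between the pairs the J1 difference was above the other by 3.10 in Mid1, 1.96 in Platr8, 1.79 in Trh, 1.76 in Mir382, 1.6 in Slc1a5 and 1.52 in Bnc2. It was below by -3.61 in Nxf3, -2.47 in Fmr1nb, -2.42 in Gbp2b, -2.21 in Eif2s3y, -2.11 in Gstk1 and -2.0 in Xlr. The 12 kept these calls in all 12 fits without 1 J1 array.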

How the results depend on the processing

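The genes chosen by the naming rule had 134 called values on the mean over days and in the comparisons that chose them, of which 25 lost their call under at least 1 alternative and none reversed. Other calls, such as Sox2 on day 7, were refitted without 1 array only and are given with their results. The counts of calls kept within 1.5 times of the full fit (217 on the mean, 91, 200 and 857 on days 0, 3 and 7) under quantile normalization, median centring, the low-value filter, means of probe sets and the trended robust prior. The additive model, fitted for the mean only, gave 191. Array weights took the day 3 to 7 interaction to 116 genes. With the 12 J1 arrays alone the count was 109 on day 3, and 154, 83 and 0 (limma; 683 at an unadjusted p under 0.05) for the interactions of days 0 to 7, 3 to 7 and 0 to 3; fewer residual degrees of freedom are part of that fit. Without a fold minimum the counts were 3771 on the mean, 331, 519 and 2840 on days 0, 3 and 7, and 2347 for the difference between pairs. Days 0 and 3 alone gave 133. Leaving out 1 J1 array gave 200 to 278 on the mean, 50 to 121 on day 0, 73 to 335 on day 3, 634 to 1651 on day 7, 0 to 39, 178 to 1277 and 96 to 1062 for the interactions of days 0 to 3, 0 to 7 and 3 to 7, and 193 to 334 for the difference between pairs. The highest counts came without WT J1 day 7 array 1, except on day 3 and for days 0 to 3, where they came without WT J1 day 3 array 1; on day 0 the fit without WT J1 day 7 array 2 gave the same 121. Leaving out chromosomes 6 and 11 was chosen after seeing the data.

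A replicate block, although not every pair of groups deviated together by number, gave 217 calls on the mean, 99, 207 and 859 on days 0, 3 and 7, 7, 335 and 201 for the interactions, and 216 between pairs. Under it Ifitm1 and Klhl13 lost their day 0 to 3 call (adjusted p = 0.0681). The small number of arrays per group, 1 clone per genotype, low signal of microRNA probe sets and the unlike WT J1 day 7 arrays limit all of these results.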
